A study of Mus musculus with 6 samples.

Results

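The 14068 regions described here were regions of open chromatin at gene starts that were found in mouse neural stem and progenitor cells (NSPCs) with and without a Sox2 enhancer cluster. They were chosen by measured values: a region of the parent peak list was taken when it overlapped a region of the deletion peak list by at least 1 bp and when its strongest summit, the one with the highest fold enrichment, lay within 1000 bp of a transcription start site (TSS) of the GENCODE M21 basic annotation on mouse build mm10. The parent list held 82885 regions and the deletion list 107480. The shared promoters were 17.0% of the parent regions (95% Wilson interval 16.7 to 17.2, counting error only) and 84.8% of the 16584 parent regions at promoters (84.3 to 85.4).

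The assay was ATAC-seq, in which the Tn5 transposase inserts sequencing adapters into accessible DNA, so that reads pile up where nucleosomes are absent. Both genotypes were 129S1/Cast F1 hybrid NSPCs derived from embryonic stem cells that carry Sox2-mCherry on the 129 allele. Parent NSPCs (clone 5B) had no deletion, whereas ΔSRR2–18 NSPCs (clone 47D) were homozygous for deletion of SRR2–18, an enhancer cluster near Sox2. Each genotype was 1 clone, sampled as 3 cultures of 30000 cells sequenced to 50 to 60 M reads. The deposited lists pool the 3 cultures of a genotype, so replicate errors are lacking throughout and nothing could be tested between genotypes. A difference between clones cannot be told apart from one between genotypes.

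A promoter is the DNA around a TSS where general transcription factors and RNA polymerase II assemble. Most mammalian promoters of broadly used genes lie in CpG islands, stretches rich in G, C and the CG dinucleotide that are usually unmethylated and free of nucleosomes in many cell types. Promoters of cell-type genes more often lack CpG islands, and distal enhancers carry much of the cell-type pattern of accessibility. SOX2 is a transcription factor that maintains neural progenitors, and SRR2–18 lies downstream of its gene.

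The sequence at shared promoters is shown first, because letters of promoter-binding factors were more frequent at their summits than in flanks. AP-1 letters were not, and are shown because members that hold them were more often higher. Each of the following 6 members was the one with the most parent reads for its motif, after members that overlap an exon or carry a provisional gene name had been passed over. The sequences are 101 bp of the forward strand of mm10 (GRCm38) centred on the motif, which stands in capitals and may be read on either strand. They hold, in order, the ETS site CCGGAAGT, the CCAAT box CCAATCNG bound by NFY, the NRF1 site CGCATGCG, the YY1 site AAGATGGCG, the cAMP response element (CRE) TGACGTCA and the AP-1 site TGANTCA.
Edem3, chr1:151755252-151755352: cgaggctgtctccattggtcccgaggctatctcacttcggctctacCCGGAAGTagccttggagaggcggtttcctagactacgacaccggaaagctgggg
Mxd4, chr5:34187946-34188046: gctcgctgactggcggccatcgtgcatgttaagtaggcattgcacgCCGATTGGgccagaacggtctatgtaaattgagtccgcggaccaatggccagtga
Rab1a, chr11:20201202-20201302: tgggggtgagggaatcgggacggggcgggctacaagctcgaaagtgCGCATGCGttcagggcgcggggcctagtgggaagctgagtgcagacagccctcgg
Pla2g6, chr15:79328321-79328421: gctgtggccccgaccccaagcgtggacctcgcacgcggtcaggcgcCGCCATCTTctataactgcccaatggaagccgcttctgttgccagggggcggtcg
Mxd1, chr6:86669471-86669571: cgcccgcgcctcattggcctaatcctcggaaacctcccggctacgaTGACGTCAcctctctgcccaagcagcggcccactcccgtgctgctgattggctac
Pcmtd1, chr1:7088666-7088766: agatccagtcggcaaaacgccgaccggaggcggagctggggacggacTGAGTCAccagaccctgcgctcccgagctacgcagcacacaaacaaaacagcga
Every printed stretch lies outside annotated exons. These members were strong in both genotypes, with 186 to 278 times the genome-wide mean of reads in parent NSPCs and 146 to 275 times in ΔSRR2–18 NSPCs.

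Members that differed between genotypes are shown in the same way, with the capitals marking an AP-1 site at Hrct1, the GC box GGGCGG at Myh14 and a CRE at Nr2e1. Each was the first in rank to hold a searched motif outside exons among the largest rises, the largest falls or the NSPC markers. AP-1 letters were near the summit at 3 of the 10 largest rises and 1 of the 10 largest falls. Hrct1 rose, while Myh14, which encodes a nonmuscle myosin heavy chain, and Nr2e1, a nuclear receptor of neural stem cells, fell.
Hrct1, chr4:43727056-43727156: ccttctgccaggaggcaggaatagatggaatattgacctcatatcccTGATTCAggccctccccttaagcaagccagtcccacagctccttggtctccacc
Myh14, chr7:44671139-44671239: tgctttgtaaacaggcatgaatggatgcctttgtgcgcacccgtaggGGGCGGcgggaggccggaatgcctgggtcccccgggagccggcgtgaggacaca
Nr2e1, chr10:42583662-42583762: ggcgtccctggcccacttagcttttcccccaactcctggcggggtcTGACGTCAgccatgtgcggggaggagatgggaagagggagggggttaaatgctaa
Reads at the Hrct1 summit went from 6.62 to 89.5 times the genome-wide mean, at Myh14 from 219 to 8.49 times, and at Nr2e1 from 85.1 to 9.61 times. A motif is a match of letters and does not show that a factor was bound.

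Read heights at a summit were solved from the deposited fold enrichment and p-value, which gave whole numbers for 99.9993% of parent and 100% of ΔSRR2–18 summits within a tolerance of 0.05 reads. The genome-wide mean, taken as the lowest local background in a list, was 38.8 reads in the parent list and 19.7 in the ΔSRR2–18 list, a ratio of 1.98. Each summit's reads were therefore divided by its list's mean and are called scaled reads. A change is the log2 ratio of ΔSRR2–18 to parent scaled reads at the highest summits, minus the median of that ratio over all 39500 shared parent regions, which was −0.23. A region is called higher or lower from a 2-fold change.

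Most shared promoters were single regions that matched one to one between genotypes. This held, with no second region on either side, for 13408 members (95.3%). Exactly 1 ΔSRR2–18 region overlapped 13788 members (98.0%), and 280 members met 2 or more. A ΔSRR2–18 summit lay within 50 bp of the strongest parent summit at 89.8% of members (89.3 to 90.3). At the 25432 shared distal regions the share was 77.1% (76.6 to 77.7). The median distance to the nearest ΔSRR2–18 summit was 13 bp at promoters and 18 bp at distal regions. The nearest of all summits in the overlapping regions was taken, so these values do not compare the strongest summits. Of the 14192 ΔSRR2–18 regions, 98.7% had their own strongest summit within 1000 bp of a TSS.

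The summit was upstream of the nearest TSS at 8016 members (57.0%), downstream at 5974 and on the TSS at 78. The median signed position was −13 bp, with quartiles of −80 and 46 bp, and 61.5% of summits lay within 100 bp of a TSS. Only 10.4% lay 500 bp or more away. Shared promoter regions had a median width of 1043 bp in parent NSPCs, against 675 bp for shared distal regions, and 28.8% of them held a single summit.

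**Figure D1:**
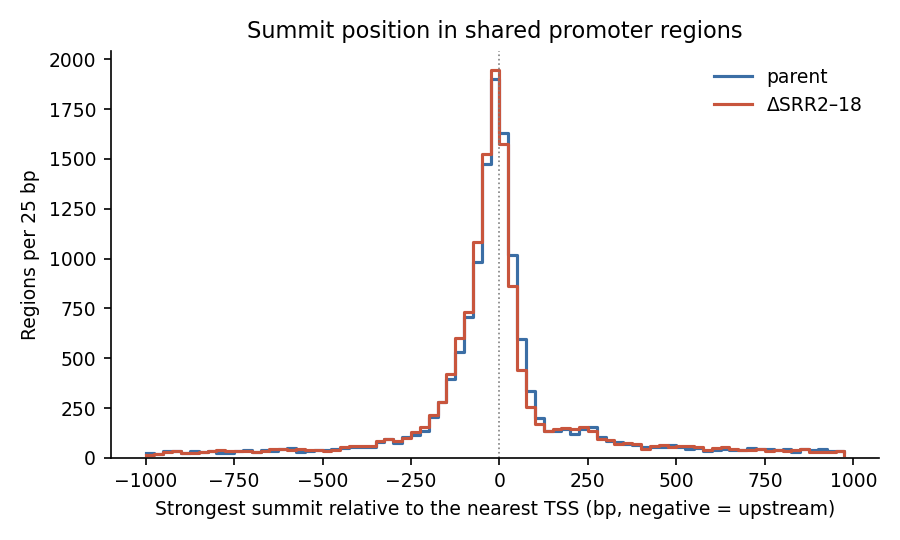
Position of the strongest summit relative to the nearest TSS (x axis, bp, negative is upstream) in shared promoter regions, as regions per 25 bp (y axis), for the parent and the ΔSRR2–18 list. Both lines crowd around the TSS, with a parent median of −13 bp, and thin out towards the 1000 bp limit.

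Shared promoters were mostly CpG-rich, whereas shared distal regions were not. A window of 201 bp around the summit was called CpG-rich at a GC content of at least 50% and an observed to expected CpG ratio of at least 0.6. This held for 10568 members (75.1%) and for 6.61% of shared distal regions. In windows centred on the annotated TSS instead of a summit, 47.8% of all protein-coding promoters were CpG-rich. Of the promoters with no region in either list it was 5.61%. Median GC content was 66.2% at shared promoters and 51.7% at shared distal regions, with median CpG ratios of 0.813 and 0.225.

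Of 21938 protein-coding genes, 12691 (57.8%) had a shared promoter. Another 533 had a promoter region in the parent list alone, 1264 in the ΔSRR2–18 list alone, and 7342 in neither. A single protein-coding gene lay within 1000 bp of the summit at 11366 members, at least 2 at 1236 and none at 1466. Divergent gene pairs, in which neighbouring genes start in opposite directions, shared 962 of the regions.

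Shared promoters tended to stand high in both lists by summit reads. The median member ranked 12.6% from the top of the parent list and 14.1% from the top of the ΔSRR2–18 list. By fold enrichment these ranks were 26.9% and 31.8%. Parent reads at the summit ranged from 132 to 15045 with a median of 3058.5, and ΔSRR2–18 reads from 85 to 11202 with a median of 1061. In scaled reads the medians were 78.7 and 54.0, against 18.1 and 19.4 at shared distal regions. The share of parent promoters that had a ΔSRR2–18 region rose with parent reads, over 5 groups of equal size, from 51.9% in the lowest through 80.0%, 95.1% and 98.1% to 99.2% in the highest.

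The order of regions depended on the measure. Scg2, which encodes the neuronal secretory protein secretogranin II and holds a CRE at its summit, had the highest parent fold enrichment over local background (40.7), followed by the zinc-finger genes Zfp960 (35.03) and Zfp940 (34.2). By reads Scg2 stood at 46.4 scaled reads, below the median member. The member with the most parent reads was Gm21887 on chromosome X (387 scaled reads), followed by Mtmr4, a phosphoinositide phosphatase gene (300 scaled reads). Gm21887 and several of the other strongest members carry provisional gene names or lie near near-identical copies, so their heights are uncertain.

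**Figure D2:**
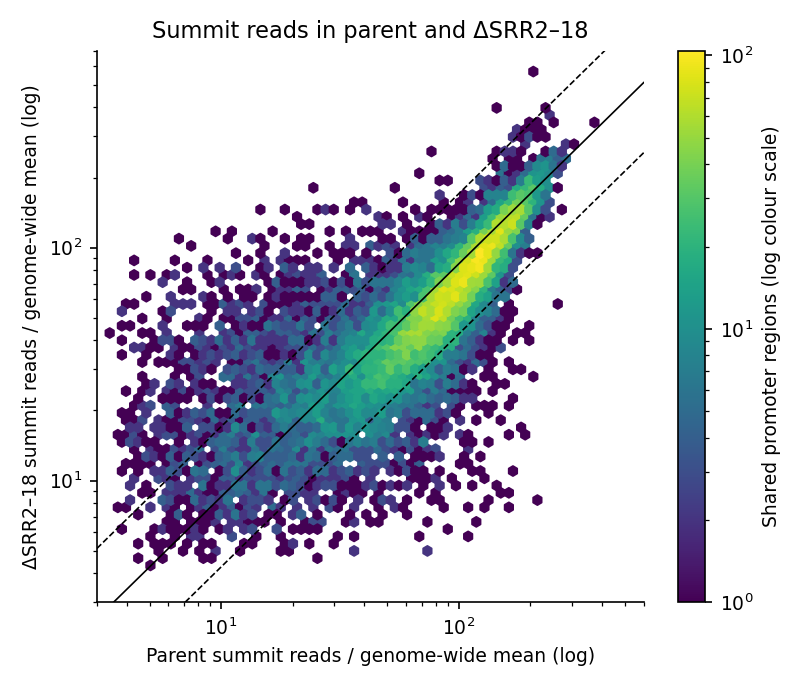
Scaled summit reads of each shared promoter in parent (x axis) and ΔSRR2–18 NSPCs (y axis), both log scales, with colour for the number of regions. The solid line marks the median ratio of all shared regions and the dashed lines a 2-fold change from it, and most members (85.2%) lie between the dashed lines.

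Changes were less spread at shared promoters than at shared distal regions. The median change at members was −0.21 with a standard deviation of 0.79 across regions, and at shared distal regions 0.24 with a standard deviation of 1.37. Of the members, 1001 (7.12%) were at least 2-fold higher in ΔSRR2–18 NSPCs and 1082 (7.69%) at least 2-fold lower. Over all shared parent regions 19.5% were higher and 11.3% lower, and over the distal ones 26.3% and 13.3%. Without centring on the shared regions, 5.68% of members were higher and 13.4% lower, and of the distal regions 22.004% were higher and 17.1% lower. The medians were then −0.45 at members and 0.01 at distal regions. The share of higher calls among all calls of members went from 48.1% to 29.7%, so the split between directions depended on the scaling. Counting error was small beside these values, with a median half-width of 0.10 on the log2 scale. A member had to be called in both genotypes, so promoters lost or gained outright are not among these values. A change in reads cannot tell fewer cells with an open promoter from a less open promoter in each cell.

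Stability rose with strength and CpG content. In 5 groups of equal size by mean scaled reads, 67.3%, 77.4%, 88.2%, 94.2% and 98.8% of members lay within 2-fold, from the weakest to the strongest. The standard deviation across regions was 1.09 in the weakest group and 0.33 in the strongest. CpG-rich members were higher in 3.82% and lower in 6.28% of cases, and the others in 17.1% and 11.9%.

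Promoters of divergent gene pairs had 96.0% within 2-fold and a standard deviation of 0.43. Members with no protein-coding gene within reach were less steady, with 19.6% higher and 12.8% lower. Members with a summit within 100 bp of the TSS were higher in 4.87% and lower in 6.41% of cases, against 17.6% and 11.2% for those 500 bp or more away. These classes overlap, and their separate parts in the spread were not tested.

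**Figure D3:**
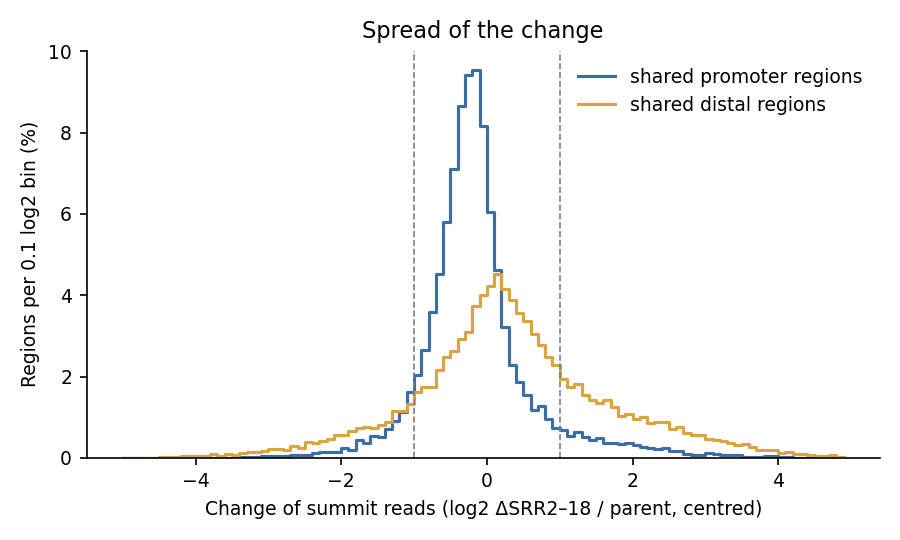
Distribution of the change in summit reads (x axis, log2 ΔSRR2–18 over parent, centred on all shared regions) for shared promoters and shared distal regions, as percent of regions per 0.1 log2 bin (y axis), with dashed lines at 2-fold. Promoters form the narrower distribution, with a standard deviation of 0.79 against 1.37.

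Promoters of genes that every cell uses mostly stayed within 2-fold. In 16 lists of core cellular machinery, such as ribosomal, proteasome and spliceosome genes, 629 of 651 genes had a shared promoter (96.6%, 94.9 to 97.8). Their median change was −0.16 with a standard deviation of 0.35, and 98.7% were within 2-fold. There 4 were higher and 4 lower, where 4.44% of all protein-coding genes with a shared promoter were higher and 6.29% lower. The number lower rests on the centring, since it was 16 without centring and 18 when centred on distal regions. The genes without one included paralogs used in particular tissues, such as the heart and skeletal muscle genes Cox6a2 and Cox8b and the testis histone gene Hist1h1t. A list of 391 Zfp zinc-finger genes, also grouped with the core lists, was left out of these counts. Of those genes 82.6% had a shared promoter, with 11 higher and 13 lower. Parent height was not held equal between the core genes and all genes. Among all members, 67.3% of the weakest and 98.8% of the strongest of 5 groups by reads were within 2-fold.

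All 78 mitochondrial ribosomal protein genes, all 7 CCT chaperonin genes, all 22 MCM and origin licensing genes and all 26 mitotic genes in the lists had a shared promoter. The list of cytosolic ribosomal protein genes had one at 81 of 85, with a median change of −0.22 and none past 2-fold. Its 4 genes without one included Rps6kl1, which encodes a kinase-like protein. Respiratory chain and ATP synthase genes had one at 76 of 81, with a median of −0.23 and none past 2-fold. Replication-dependent histone genes stood apart in sequence, since 19 of the 62 shared promoters were CpG-rich, yet their median change was −0.02 and 1 was called.

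The 8 core genes that were called moved by 1.04 to 2.24 on the log2 scale. Psmb8, a subunit of the immunoproteasome that interferon induces, went from 14.9 to 59.1 scaled reads (change 2.22). Hist3h2ba went from 9.99 to 40.1 (2.24), the translation factor gene Eif4e3 from 14.8 to 31.2 (1.31), and the BBSome gene Bbs5 from 36.3 to 63.3 (1.04). Lower were Snrpn, an imprinted spliceosome gene (101 to 27.8, change −1.63), Sf3b3 (37.8 to 11.0, −1.55), Mrpl23 (53.4 to 16.5, −1.46) and the Mediator gene Med15 (97.0 to 39.3, −1.07).

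All 12 reference genes often used for normalisation had a shared promoter and none was called. Their changes ran from −0.75 at Pgk1, a glycolytic gene on chromosome X (180 to 90.8 scaled reads), to 0.20 at Gapdh (119 to 117). Actb, the cytoskeletal actin gene, went from 81.4 to 60.9 scaled reads (−0.19) and Tbp, the TATA-binding protein gene, from 84.1 to 59.8 (−0.26). Their median of −0.23 was close to that of all members.

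**Figure D4:**
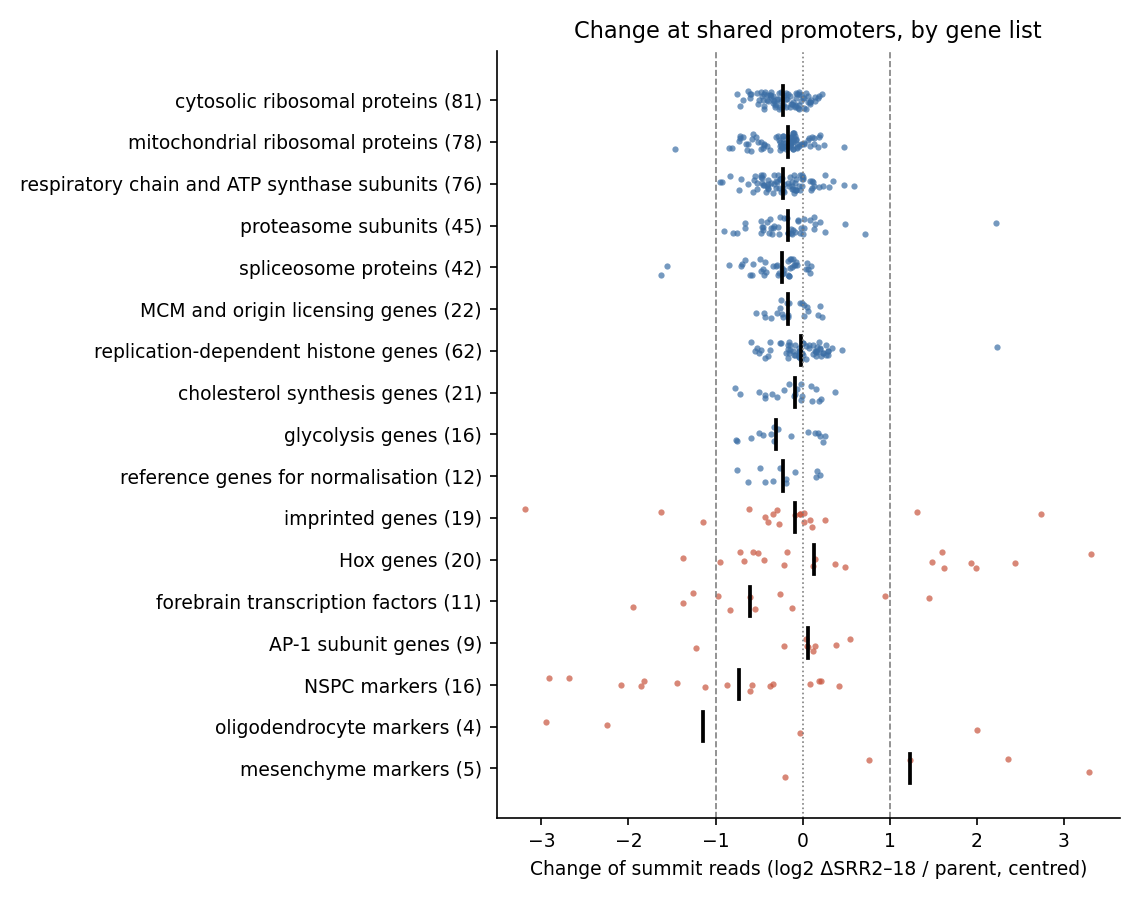
Change in summit reads (x axis, log2, centred) at the shared promoter of each gene, by gene list, with the number of genes in parentheses, a bar for the median and dashed lines at 2-fold. Core lists in blue cluster near their medians of −0.30 to −0.02, and lists of developmental genes and markers in red spread over both sides.

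All 16 NSPC marker genes had a shared promoter, and 7 of them were lower and none higher, where the background was 6.29% lower. Their summed scaled reads were 1468 in parent and 764 in ΔSRR2–18 NSPCs, and the median change was −0.73. Nr2e1 went from 85.1 to 9.61 scaled reads (change −2.91), the Notch effector Hes5 from 158 to 21.01 (−2.68), and the SOXB1 genes Sox3 from 59.7 to 12.005 (−2.08) and Sox1 from 51.6 to 12.1 (−1.86). Fabp7, a fatty acid binding protein of radial glia, went from 94.3 to 22.6 (−1.83) and the RNA-binding protein gene Msi1 from 47.2 to 18.4 (−1.13).

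Sox2 itself, whose enhancers were deleted, had a shared promoter at chr3:34648709-34650183 that went from 115 to 36.2 scaled reads (−1.44). Other NSPC markers kept their height. The intermediate filament gene Vim was at 105 and 102 scaled reads (0.19), Id4 at 104 and 102 (0.21) and the Notch effector Hes1 at 99.99 and 90.2 (0.08). Notch1 (133 to 62.5, change −0.86), Pax6 (130 to 73.1, −0.60) and Nes (90.4 to 51.6, −0.58) were below their parent height but within 2-fold.

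The call at these markers depended on the measure. Fold enrichment divides the summit by a local background that includes the reads of the region itself. This background was lower in ΔSRR2–18 NSPCs at 14 of the 16 markers, with a median change of −1.01. Over all members its median change was −0.26. It was also lower at 71 of 81 cytosolic ribosomal protein genes and 10 of 12 reference genes with a shared promoter, and at 9 of 20 Hox genes. By fold enrichment 2 markers were lower and 1 higher, where 2.44% and 1.64% of protein-coding genes with a shared promoter were. Nr2e1 (−1.52) and Sox1 (−1.19) were lower by both measures, Fabp7 was at 0.83 and Sox2 at 0.17 by fold enrichment, and the astroglial glutamate transporter gene Slc1a3 was the one higher (1.55). The local background spans 10000 bp, which at Sox2 can reach into the deleted DNA downstream of the gene. The part of the missing DNA in the fold enrichment of Sox2 was not tested.

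Marker lists of other cell types ran from 0% to 62.5% of genes with a shared promoter, where 57.8% of all protein-coding genes had one. Of 11 embryonic stem cell markers 4 had one, and Pou5f1, Nanog and Zfp42 had a promoter region in neither list. Of 10 liver and skeletal muscle markers none had a shared promoter, of 8 endothelial and blood markers 1, of 8 epithelial markers 2, and of 1418 olfactory and vomeronasal receptor genes 3. The neuron list had 6 of 10, with 1 lower, and the astrocyte list 3 of 6, with S100b lower (−2.02) and Gfap and Aqp4 in neither list. Over all protein-coding genes with a shared promoter 6.29% were lower.

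Several mesenchymal markers were higher in ΔSRR2–18 NSPCs. Of 8 mesenchymal markers 5 had a shared promoter and 3 were higher, where 4.44% of all protein-coding genes with a shared promoter were, and 1 of the 5 was higher by fold enrichment. Their summed scaled reads were 187 in parent and 360 in ΔSRR2–18 NSPCs. The smooth muscle genes Acta2 (13.4 to 112, change 3.29) and Tagln (8.73 to 38.1, 2.36) and the collagen gene Col1a1 (42.7 to 85.5, 1.23) were those 3, with changes of 0.11, 1.65 and −0.46 by fold enrichment. The epithelial cadherin gene Cdh1 went from 4.07 to 19.5 (2.50), and Epcam, Cldn4 and Grhl2 had a promoter region in the ΔSRR2–18 list alone. Of the oligodendrocyte markers 4 of 8 had one, with summed scaled reads of 308 and 115. There Olig2 (136 to 15.1, −2.94) and Olig1 (88.4 to 15.9, −2.25) were lower and Mbp was higher (2.01), where the background was 6.29% lower and 4.44% higher. By fold enrichment Olig2 was at −0.04 and Olig1 at 0.80. The share of each cell type in the cultures, and its part in these changes, was not tested.

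The 10 largest rises were taken from 11132 members with exactly 1 ΔSRR2–18 region, 1 protein-coding gene and at least 100 reads in each list. A low parent height follows from choosing by the largest ratio. Parent heights were 3.40 to 6.62 scaled reads and ΔSRR2–18 heights 44.3 to 109, with changes of 3.81 to 4.29. Bag3, a cochaperone of HSP70, led with 254 parent and 2135 ΔSRR2–18 reads, or 6.54 and 109 scaled reads. The others were Tunar, Hrct1, the interferon-induced gene Ifi35, the decoy receptor gene Tnfrsf23, the basement membrane collagen gene Col7a1, Baalc, Tm4sf1, Mfsd10 and the germ cell gene Dazl. All 10 were also positive by fold enrichment, by 0.81 to 2.25.

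The 10 largest falls were taken from the same members, so that a high parent height follows from the choice. Parent heights were 73.8 to 219 scaled reads and ΔSRR2–18 heights 5.90 to 15.2. Myh14 led with 8497 parent and 167 ΔSRR2–18 reads, a change of −4.46. Next came the deacetylase gene Hdac9 (106 to 5.90 scaled reads, −3.94), the G protein regulator Rgs3 (135 to 8.04, −3.83) and the GABA receptor subunit gene Gabrg1 (113 to 7.73, −3.64). The remaining 6 were Klhl5, Gpr146, Pipox, Ttyh1, the imprinted gene Mkrn3 and the retinal gene Rd3, at −3.60 to −3.18. By fold enrichment Pipox (−0.11) and Ttyh1 (0.01) were near 0, and their local backgrounds changed by −3.38 and −3.36. None of these 10 falls and 4 of the 10 rises were CpG-rich, where 75.1% of members were.

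Motifs of general promoter factors were more frequent at the summits of shared promoters than in their flanks. The 14 motifs were searched on both strands in the 201 bp around each summit, in windows 500 bp away and around distal summits. For all protein-coding promoters the window was centred on the annotated TSS. Base composition was not held equal between these windows, and many of the motifs are rich in G and C. The shares expected from composition alone were not computed. The GC box GGGCGG of SP and KLF factors was in 61.2% of members, 17.9% of flanks, 10.2% of distal windows and 40.02% of all promoters. The NFY box was in 8.23% of members, 1.29% of flanks and 5.42% of all promoters, and the ETS site in 5.93%, 0.48% and 4.35%. For the USF E-box CACGTGAC these shares were 3.00%, 0.34% and 2.15%, for CRE 2.64%, 0.18% and 2.01%, for YY1 2.21%, 0.32% and 1.81%, and for NRF1 2.03%, 0.21% and 1.88%. With windows centred on the nearest TSS, the shares of members were 59.6%, 6.60%, 6.29%, 3.00%, 2.64%, 2.94% and 2.59%, in the same order of motifs.

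Rarer promoter motifs were the palindrome CTCGCGAG, in 1.35% of members and 0.94% of all promoters, and the ZNF143 site ACTACAATT, in 0.53% and 0.32%. At least 1 of 8 promoter motifs without the GC box was in 23.2% of members. AP-1, SOX and TATA letters were no more frequent at promoter summits than in their flanks. AP-1 was in 3.49% of members, 3.81% of flanks, 13.95% of distal windows and 4.11% of all promoters. The SOX site AACAATG was in 1.17%, 1.798%, 3.74% and 1.66%, and TATAAA in 2.35%, 7.83%, 5.47% and 8.08%. The CTCF letters CTAGNGGGC were in 1.56% of members, 0.50% of flanks, 3.39% of distal windows and 0.99% of all promoters, and the RFX letters GTTGCCATG in 0.81%, 0.14%, 1.12% and 0.51%. The end of the CTCF letters can overlap a GC box, and each motif was counted by itself.

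**Figure D5:**
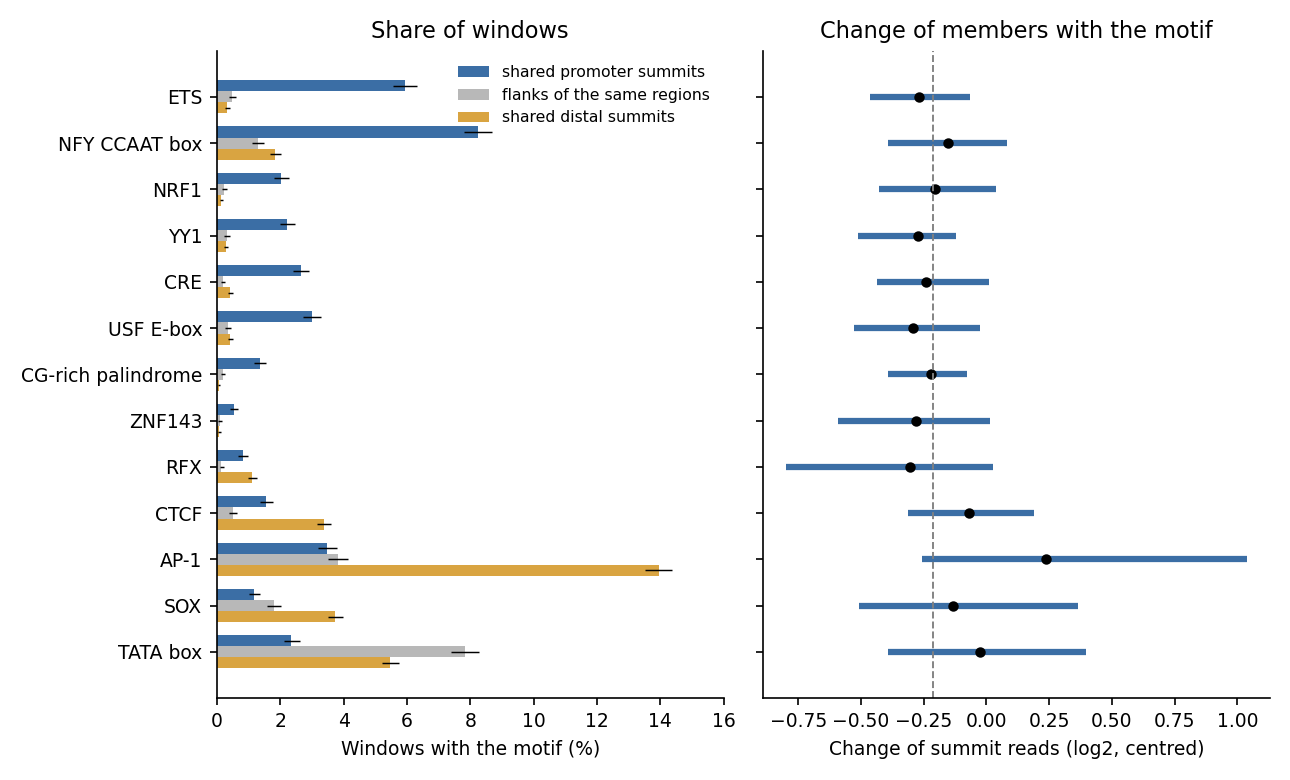
Left, share of windows that hold each motif (%) at shared promoter summits, in their flanks and at shared distal summits, with 95% Wilson intervals. Right, median and quartiles of the change in summit reads at members with the motif (log2, centred), with the dashed line at the median of all members, where AP-1 stands to the right at 0.24.

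Members with promoter motifs were less often called than those without. With at least 1 of the 8 motifs, 2.67% were higher and 3.80% lower, against 8.46% and 8.86% without. Without centring, 2.30% were higher and 8.49% lower, against 6.70% and 14.9%. Parent height was not held equal, with medians of 96.7 scaled reads with the motifs and 72.8 without. The part of height in this difference was not tested. Of 311 members with the YY1 letters 0.64% were higher and 1.93% lower, and of 834 with ETS 1.08% and 2.64%. Of 190 members with CTCGCGAG none was higher, which allows a share of up to 1.58% at a limit of 3 counts (Wilson upper bound 1.98%), and 3 were lower.

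Members with AP-1 letters were more often higher than those without. Of 491 such members 25.7% were higher (21.998 to 29.7) and 4.28% lower, and their median change was 0.24 against −0.22 without the letters. At shared distal regions the medians were 1.04 with and 0.17 without. The difference held within both sequence classes, since 36.1% of the 277 that were not CpG-rich were higher against 15.4% without AP-1, and 12.1% of the 214 CpG-rich ones against 3.65%. Parent height was not held equal. Its medians were 25.8 scaled reads with AP-1 and 39.6 without in the first class, and 77.6 and 88.5 in the second. The part of height in this difference was not tested. Of 114 members with RFX letters 19.3% were lower (13.1 to 27.5), against 7.596% without the letters. Among members that were not CpG-rich 33.3% of the 51 with RFX letters were lower, against 11.9% of the class. Among CpG-rich ones it was 7.94% of 63, against 6.28% of the class.

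One segment of the genome, picked after its values were seen, stood at its own level. On chromosome 12 from 74316396 to 120129022 the 266 members had a median change of 0.61, against −0.22 on the rest of that chromosome. They stood 0.84 on the log2 scale, or 1.79-fold, above the other members, and 247 of them were above the median of the rest. Other chromosomes had medians of −0.30 (X) to −0.17 (13). By fold enrichment the segment was at −0.06 and the other members at −0.05, while local background changed by 0.58 and −0.27. Its members gave 56 of the 1001 higher calls, including Tunar, and without the segment 6.85% of members were higher and 7.79% lower. The number of copies of this segment in each clone was not tested.

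At the edge of the rule, the members farthest from a TSS were Cav2, Gm34256 and Cbx5, each at 1000 bp, with changes of 2.10, 0.88 and 0.26. The nearest shared regions left out were Arid1b and Klf3 at 1002 bp (1.08 and −1.74) and Ltbp3 at 1003 bp (−0.64). The 247 members at 900 to 1000 bp had a median change of 0.00 and the 245 shared regions just beyond 0.06. The smallest overlap between genotypes was 3 bp, at Bmp6, and 4 members overlapped by under 50 bp.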

How the data were processed

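ATAC-seq was done in 3 cultures of each genotype, and the authors ran the ENCODE ATAC-seq pipeline version 1.10.0 on mm10, with MACS2 peak calling and IDR, a test of reproducibility between replicates, for each genotype. The deposited conservative and optimal narrowPeak lists hold pooled values per summit: a score from IDR, a ratio (fold enrichment over local background), −log10 of the p-value and, unused here, of the q-value, and the offset of the summit. Conservative lists were used throughout, and optimal lists as an alternative. The submitters' processing notes also name deepTools.

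Summit reads and local background were solved from the deposited fold enrichment, with the MACS2 pseudocount of 1, and the −log10 p-value under the Poisson distribution. They are pileup heights, not distinct fragments. TSSs came from GENCODE M21 basic, and sequences were read from GRCm38, the same build. A gene was assigned the member with the highest mean scaled reads. Intervals are 95% Wilson for shares and Poisson for reads, and cover counting error only. No test between genotypes was run, since pooling leaves no replicates. Members and lists were chosen with earlier results of these data known.

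Named genes were the extremes of each of the gene lists, the 10 largest rises and falls among members with at least 100 reads in each list, those with the highest fold enrichment, all reference genes and NSPC markers, Sox2, and the members next to the 1000 bp limit. Genes that were called in core lists or other marker lists were named after their values were seen. Solving, overlap and motif steps were tested on simulated data. Python 3.11.15, numpy 2.4.6, scipy 1.17.1, pandas 2.3.3 and matplotlib 3.10.9 were used.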

Additional observations from a re-analysis of the deposited data

How the results depend on the processing

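No paired analysis was possible because the deposited lists pool the cultures of each genotype, and for the same reason no culture could be left out. The number of members stayed between 12602 and 16555 in every alternative. Single regions were followed across alternatives only where named, and 69 of these 224 named regions were called. The named regions include the largest rises and falls, so their counts do not describe all called members. Of 471 values of the called named regions, 412 stayed on the same side of 2-fold and 9 reversed. Each reversal came with fold enrichment in place of reads. The reversed values were Nap1l5 0.83, Hoxc5 −0.00247, Fabp7 0.83, Sox2 0.17, Map2 0.18, Olig1 0.80, Col1a1 −0.46, Ttyh1 0.010 and Gm13341 −0.039. The cause was not tested.

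Members were 16.5% of parent regions with the optimal lists, 16.2% with 50% reciprocal overlap, 18.3% with IDR scores of at least 830, 15.2% with a 500 bp limit, 20.0% with 2.5 kb and 15.2% with protein-coding TSSs. Their share of parent promoters was 80.9% with reciprocal overlap, 89.0% with 500 bp, 75.9% with 2.5 kb and 91.1% with protein-coding TSSs. Summits matched within 20 bp at 67.0% and within 150 bp at 97.9%, and 1 ΔSRR2–18 region was met by 97.6% with optimal lists and 98.3% with strict scores.

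The share higher was 5.68% without centring, 8.94% centred on promoters, 5.60% on distal regions, 6.15% with the nearest summit, 3.45% by fold enrichment, 11.5% at 1.5-fold, 3.96% at 3-fold, 7.72% with optimal lists, 6.47% for one-to-one regions and 7.71% centred within 10 groups by GC content. The share lower was 13.4% without centring, 4.73% on promoters, 13.8% on distal regions, 8.28% with the nearest summit, 3.30% by fold enrichment, 21.3% at 1.5-fold, 2.32% at 3-fold and 5.13% within GC groups. The median change was −0.45 without centring, 0 on promoters, −0.46 on distal regions, −0.19 with the nearest summit, −0.045 by fold enrichment and −0.025 within GC groups. The GC grouping and leaving out distal chromosome 12 were chosen after seeing the data.

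Of the NSPC markers 2 were lower and 1 higher by fold enrichment. Of the core genes the number lower was 16 without centring, 18 on distal regions, 7 by fold enrichment, 53 at 1.5-fold, 1 at 3-fold and 7 within GC groups, and the number higher 7 on promoters, 15 at 1.5-fold and 2 at 3-fold.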

Other observations

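Many genes had more than 1 shared promoter, and these did not always move together. Of 1076 genes with at least 2 shared promoter regions, 887 had at least 2 that matched one to one between genotypes with at least 100 reads in each list, so that no ΔSRR2–18 region was counted for more than 1 of them. The median spread between their highest and lowest change was 0.55 on the log2 scale. It was at least 2-fold in 221 genes (24.9%) and at least 4-fold in 71. In 9 genes 1 region was called higher and another lower, and in 7 of these, which are 6 pairs of regions since Taz and Dnase1l1 share theirs, the signs were also opposite by fold enrichment and with the nearest summit. The genes named here were chosen after their values were seen. Nhsl1 had regions at −2.03 and 1.77, the Ras GTPase-activating gene Dab2ip at −1.96 and 1.49, and the transcriptional corepressor gene Runx1t1 at −1.15 and 2.21.

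Imprinted genes, which are expressed from 1 parental allele, held 19 shared promoters in a list of 30 genes. Their median change was −0.09, and 2 were higher and 3 lower, where 4.44% and 6.29% of all protein-coding genes with a shared promoter were. By fold enrichment 0 were higher and 1 lower. In the Prader-Willi cluster on chromosome 7, Magel2 went from 8.14 to 46.4 scaled reads (2.74) and Mkrn3 from 85.5 to 7.99 (−3.19), and Snrpn changed by −1.63. Igf2, H19, Dlk1, Meg3, Cdkn1c and Phlda2 had a promoter region in the ΔSRR2–18 list alone. These were 6 of the 30 genes, where 1264 of all 21938 protein-coding genes had one in that list alone. Their positions were not set against the segment of chromosome 12. The lists do not separate the 129 and Cast alleles.

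Zinc-finger genes of the Zfp series had 323 shared promoters among 391 genes, with a median change of −0.19, 11 higher and 13 lower, shares no larger than the 4.44% and 6.29% over all protein-coding genes with a shared promoter. Of 39 Hox genes 20 had a shared promoter, of which 7 were higher and 1 lower by reads, with a median of 0.13, and 0 were higher and 0 lower by fold enrichment, with a median of −0.03. Hoxb9 went from 9.71 to 82.4 scaled reads (3.32), and by fold enrichment its change was 0.40. These are counts and values from pooled lists with no test.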
